A study of Mus musculus with 12 samples.

Results

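Whole bone marrow of mice was examined for 34 listed genes of T cells and natural killer (NK) cells, out of 21853 genes in the deposited table. The list was chosen by gene name: 4 chains of the T cell receptor complex, 4 proteins of its proximal signalling, 3 co-receptor chains, 7 adhesion and costimulatory receptors, 5 transcription factors, 2 cytokine receptors, 4 NK receptors and 5 cytotoxic effectors. The mice, given as B6, formed 4 groups of 3 libraries. The control group was not irradiated. The TBI group received total body irradiation of 5 Gy of gamma rays at 0.66 Gy per minute, and olive oil vehicle (100 µL) by gavage. The TBI+DEIX group received the same irradiation and DEIX, at 25 mg/kg by mouth daily for 14 days. The title of the series gives the compound as deinoxanthin, a carotenoid of bacteria. The DEIX group received DEIX without irradiation. Marrow was taken 14 days after irradiation, and the labels used here give no vehicle for the control, TBI+DEIX and DEIX groups. Nothing in the labels states that the libraries of a group came from separate mice, so p-values measure the spread between these libraries, which may be technical.

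T cells recognise antigen through a receptor whose CD3 and zeta chains carry the signal into the cell, where the kinases Lck and Zap70 and the adaptor Lat pass it on. NK cells carry no such antigen receptor; they weigh signals from activating and inhibitory receptors and kill with perforin and granzymes, as cytotoxic T cells do. Both are minor populations of marrow: NK cells develop there, and mature T cells recirculate through it from the thymus and periphery. In a bulk tissue, fewer cells of a type and less RNA per cell cannot be told apart.

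All 34 genes were detected in every library. FPKM (fragments scaled by the length of the transcript and the mapped fragments of the library) corrects for transcript length, so levels of different genes can be compared. Most members were low: in the control mean, Bcl11b was lowest at 0.468 FPKM and Nkg7 highest at 138 FPKM. A gene was tested where at least 3 of the 12 libraries reached 1 FPKM, which 10994 genes and 30 members did; Cd5, Cd96, Bcl11b and Gata3 did not. Of the 30, Tbx21 passed only with the control libraries counted.

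The files hold no read totals. Steps in the low values gave approximate depths, by which 1 FPKM stood for 38 to 53 fragments per kilobase of transcript in control, 45 to 56 in TBI, 19 to 35 in TBI+DEIX and 33 to 44 in DEIX libraries. TBI+DEIX replicate 1 stood apart: it was the shallowest, at about 19 fragments per kilobase and FPKM, and its summed FPKM for markers of B lineage (8.03), erythroid (230), plasmacytoid dendritic (37.7) and monocytic (828) cells was the lowest of all 12 libraries. The spread of the 30 members within a group, as a root mean square SD on the log2(FPKM + 1) scale, was 0.164 in control, 0.252 in TBI, 0.264 in DEIX and 0.559 in TBI+DEIX libraries. One model shares its spread over the groups, so that library touches every test; each count of members called is given with and without it. The heat map of all 34 genes shows it as a column of low values.

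**Figure D1:**
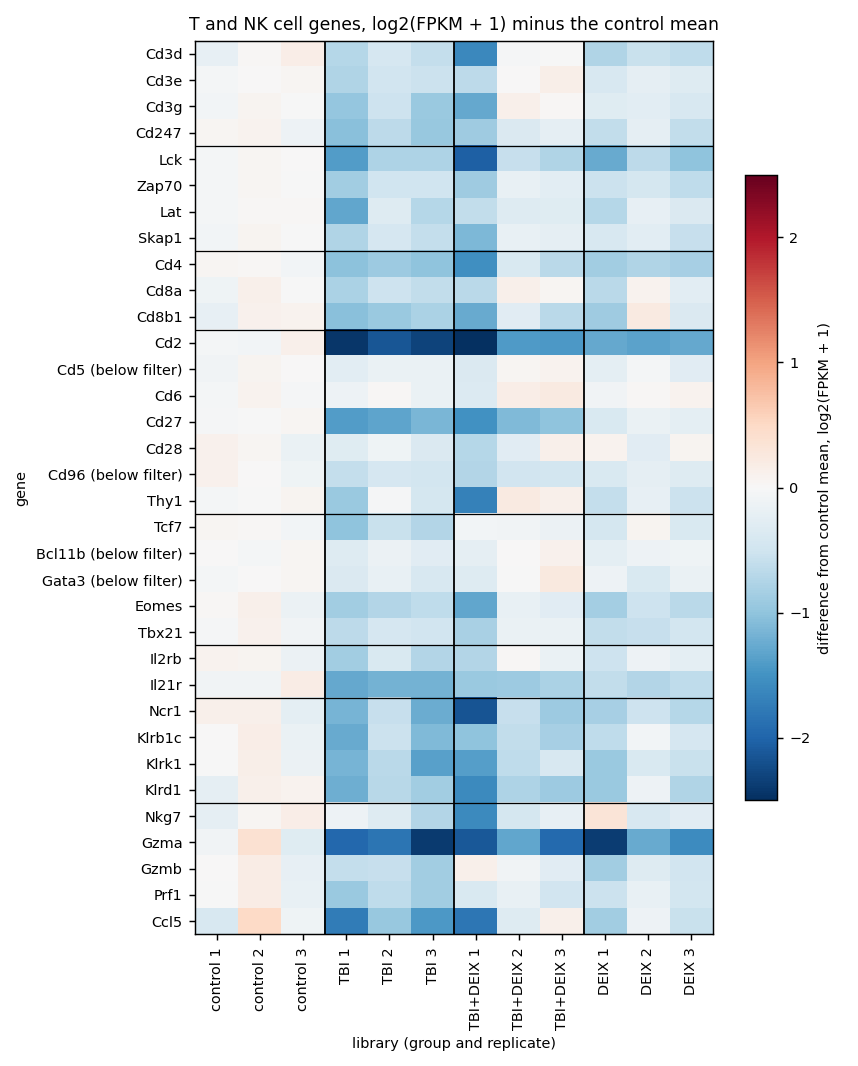
Each row is 1 of the 34 genes and each column 1 of the 12 libraries; colour gives log2(FPKM + 1) minus the control mean, blue lower and red higher, and lines divide groups and roles. TBI columns are blue in nearly all rows, TBI+DEIX replicate 1 is blue in most rows, and TBI+DEIX replicates 2 and 3 are pale for the CD3 chains and blue for Cd2, Cd27, Il21r and Gzma.

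The stretches of DNA just before the transcription start are shown for 4 members from 3 of the roles: Cd3d and Cd3g, neighbours read in opposite directions with starts 1355 bases apart, and Gzma and Ncr1, genes of killer cells. They are RefSeq sequences on GRCm38.p6, the 250 bases before each start, 5′ to 3′ on the gene's strand: chr9:44981536-44981785 (plus strand) for Cd3d, chr9:44980432-44980681 (minus) for Cd3g, chr13:113100982-113101231 (minus) for Gzma and chr7:4337465-4337714 (plus) for Ncr1. Capitals mark exact matches, on either strand, to AGGTGT, a core bound by T-box factors such as Eomes and T-bet, or TGTGGT, a core bound by RUNX factors.
Cd3d: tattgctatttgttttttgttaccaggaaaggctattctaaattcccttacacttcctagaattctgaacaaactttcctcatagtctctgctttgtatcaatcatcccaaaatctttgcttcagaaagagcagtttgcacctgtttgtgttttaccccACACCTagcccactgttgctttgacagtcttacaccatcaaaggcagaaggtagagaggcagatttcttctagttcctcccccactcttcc
Cd3g: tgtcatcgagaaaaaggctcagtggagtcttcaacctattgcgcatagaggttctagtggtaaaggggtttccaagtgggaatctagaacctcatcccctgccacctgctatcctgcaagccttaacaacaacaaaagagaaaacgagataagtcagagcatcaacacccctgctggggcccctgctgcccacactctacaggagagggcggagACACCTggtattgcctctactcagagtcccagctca
Gzma: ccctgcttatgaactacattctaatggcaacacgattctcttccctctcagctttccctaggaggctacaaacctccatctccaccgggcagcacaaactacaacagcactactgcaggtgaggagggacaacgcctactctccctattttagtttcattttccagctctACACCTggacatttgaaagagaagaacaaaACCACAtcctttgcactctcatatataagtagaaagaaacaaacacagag
Ncr1: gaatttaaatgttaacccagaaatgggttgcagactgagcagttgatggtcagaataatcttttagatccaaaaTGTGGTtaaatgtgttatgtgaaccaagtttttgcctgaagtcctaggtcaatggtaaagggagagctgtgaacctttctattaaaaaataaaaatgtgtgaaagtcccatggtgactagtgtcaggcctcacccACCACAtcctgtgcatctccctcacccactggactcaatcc
Cd3d and Cd3g each held 1 T-box match, Gzma held 1 of each kind, and Ncr1 held 2 RUNX matches and no T-box match. RefSeq windows were matched for 24 of the 34 genes. Of these, 11 (45.8%) held TGTGGT against 15.9% of all 27025 genes with a window, and 7 (29.2%) held AGGTGT against 13.6%. A gene counted where any of its windows held the word. The ETS core GGAAGT was in 11 (45.8%) against 22.2%, the TCF/LEF core CTTTGA in 3 (12.5%) against 15.8%, and the GATA core AGATAA in 1 (4.17%) against 11.4%, each on both strands. The T-box and RUNX words can share bases where they meet, and a match is a description of the letters, not a bound site.

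The first question was what irradiation with vehicle left of the T and NK signal at day 14. All 30 tested members had a lower mean in TBI than in control marrow, and 10 fell at a limma adjusted p under 0.05, against 3.10% of all tested genes called lower and 3.99% called in either direction. The 10 were Cd247, Cd4, Cd2, Cd27, Tcf7, Il21r, Klrb1c, Klrk1, Gzma and Prf1, from 7 of the 8 roles; none rose. In 26 of the 30, and 30 of all 34, every TBI library lay below every control library, which held for 16.3% of all tested genes. The median log2 change of the tested members was −0.79, with a range of −2.29 to −0.089, against 0.045 over all tested genes. In the fit that leaves TBI+DEIX replicate 1 out of the shared spread, 26 of the 30 were called lower, against 7.20% of all tested genes called lower.

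Of the receptor complex, whose genes on chromosome 9 (Cd3d, Cd3e and Cd3g) and chromosome 1 (Cd247, the zeta chain, chr1:165788681-165877277) encode the signalling chains, only Cd247 was called. Its level was 2.43, 2.51 and 2.02 FPKM in the control libraries and 0.600, 1.11 and 0.716 FPKM in the TBI libraries. The groups did not overlap, and the log2 change of FPKM + 1 was −0.88 (SE 0.19, limma adjusted p = 0.0251); the call was lost when any control library, TBI replicate 1 or TBI replicate 3 was left out. Cd3g was 4.54, 5.12 and 4.80 FPKM in control and 1.96, 3.05 and 2.05 FPKM in TBI libraries. Its change of −0.81 (SE 0.30, limma adjusted p = 0.179) missed the threshold although no TBI library reached a control library. Cd3d and Cd3e were also separate by library, at 60.6% and 55.1% of the control mean in TBI marrow.

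The proximal signalling genes showed the same separation without a call. Lck, the kinase that first phosphorylates the CD3 chains, was 8.48, 9.17 and 8.82 FPKM in control and 2.73, 4.74 and 4.77 FPKM in TBI libraries (log2 change −0.98, SE 0.33, limma adjusted p = 0.144). Zap70, the kinase recruited to those chains, Lat, its adaptor substrate, and Skap1, an adaptor that links the receptor to integrins, stood at 50.8%, 53.9% and 54.5% of their control means.

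Among co-receptors, Cd4, which binds MHC class II, was 4.04, 4.01 and 3.67 FPKM in control and 1.40, 1.62 and 1.43 FPKM in TBI libraries. It fell by 0.98 on the log2 scale (SE 0.23, limma adjusted p = 0.0359), a call kept in 10 of 20 alternatives. Cd4 is also transcribed by plasmacytoid dendritic cells. The 9 markers fixed for those cells summed to 381 to 447 FPKM in control and 131 to 153 FPKM in TBI libraries, 5 of 9 were called lower, or 9 of 9 without TBI+DEIX replicate 1 (3.10% and 7.20% of all tested genes), and none was at 0. Their part in the Cd4 result was not tested. Cd8a and Cd8b1, the chains of the MHC class I co-receptor, were at 45.4% and 29.6% of control with no call.

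The largest fall among the members was that of Cd2 (chr3:101275899-101287939), an adhesion receptor that binds CD48 in mice. It was 14.1, 13.8 and 16.0 FPKM in control and 1.89, 2.55 and 2.14 FPKM in TBI libraries, 15.0% of the control mean. The TBI values lay far under the control values and close together (log2 change −2.29, SE 0.28, limma adjusted p = 0.00139). Cd27 (chr6:125232622-125237010), a costimulatory receptor of the TNF receptor family, was 4.98, 5.04 and 5.29 FPKM in control and 1.33, 1.45 and 1.77 FPKM in TBI libraries (log2 change −1.28, SE 0.14, limma adjusted p = 0.000803). Both calls were kept under every alternative. B lineage cells of the mouse also carry Cd2, and early progenitors include cells with Cd27. The 12 B lineage markers, none at 0 throughout, summed to 537 to 660 FPKM in control and to 33.4, 358 and 425 FPKM in TBI replicates 1 to 3. Of the 12, Ms4a1 (CD20), Cd22 and Blk were called lower, against 3.10% of all tested genes. Without TBI+DEIX replicate 1, 4 of the 12 were called lower, against 7.20%. Ms4a1 was 18.0 to 25.2 FPKM in control and 0.314, 0.546 and 0.664 FPKM in TBI libraries. The 9 progenitor markers summed to 156 to 164 FPKM in control and 72.1 to 93.4 FPKM in TBI libraries. The part of these cells in the Cd2 and Cd27 results was not tested. Cd6, Cd28 and Thy1, a scavenger-type receptor, a costimulatory receptor and a surface glycoprotein of mouse T cells, overlapped between the groups and were not called.

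Of the transcription factors, Tcf7, which encodes the T lineage factor TCF-1, was 4.60, 4.52 and 4.13 FPKM in control and 1.70, 2.68 and 2.26 FPKM in TBI libraries. It fell by 0.76 (SE 0.15, limma adjusted p = 0.0179), a call kept in 13 of 20 alternatives. Eomes and Tbx21 (T-bet), T-box factors of NK and cytotoxic T cells, were at 40.0% and 52.1% of control with limma adjusted p of 0.132 and 0.127.

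Il21r (chr7:125603429-125633570), the receptor for interleukin-21, had the lowest adjusted p of the members. It was 5.97, 6.03 and 7.42 FPKM in control and 2.08, 2.28 and 2.28 FPKM in TBI libraries (log2 change −1.21, SE 0.10, limma adjusted p = 0.00016), and all 20 alternatives kept the call. B cells also carry this receptor, and the part of the B lineage markers given above in this result was not tested. Il2rb, the beta chain shared by the interleukin-2 and interleukin-15 receptors, was at 60.3% of control with no call (limma adjusted p = 0.098).

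The 4 NK receptor genes moved by similar amounts, from −0.93 to −1.06. Klrb1c encodes NK1.1, the NK marker of B6 mice. It was 6.18, 7.01 and 5.34 FPKM in control and 1.98, 3.90 and 2.31 FPKM in TBI libraries (log2 change −0.97, SE 0.20, limma adjusted p = 0.0231). Klrk1, which encodes the activating receptor NKG2D, was 8.72, 9.90 and 7.87 FPKM in control and 3.40, 5.12 and 2.84 FPKM in TBI libraries (log2 change −1.06, SE 0.25, limma adjusted p = 0.0415). Neither pair of groups overlapped, but Klrb1c lost its call in 6 alternatives and Klrk1 in 10 of 21. Ncr1, the activating receptor NKp46, and Klrd1, the CD94 partner of the NKG2 receptors, also lay wholly below control, at 39.7% and 48.3% of it, without a call.

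Of the cytotoxic effectors, Gzma (granzyme A, chr13:113093825-113100981) was 16.5, 23.1 and 14.0 FPKM in control and 3.73, 4.21 and 2.54 FPKM in TBI libraries. It fell by 2.06 on the log2 scale (SE 0.30, limma adjusted p = 0.00378), to 19.5% of the control mean, and kept its call in every alternative. Prf1, perforin, was 1.79, 2.21 and 1.49 FPKM in control and 0.476, 0.816 and 0.544 FPKM in TBI libraries (log2 change −0.81, SE 0.15, limma adjusted p = 0.0116); it lost the call without control replicate 1 or 2. Gzmb (granzyme B) had a limma adjusted p of 0.0535 at 43.5% of control, and the chemokine Ccl5 one of 0.119 at 37.2%. Nkg7, a granule membrane protein, overlapped between the groups at 118, 142 and 154 FPKM in control and 125, 109 and 81.8 FPKM in TBI libraries. Its control mean of 138 FPKM stood far above those of the NK receptors, from 4.38 FPKM (Ncr1) to 10.7 FPKM (Klrd1). The part of other marrow cells in its level was not tested.

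**Figure D2:**
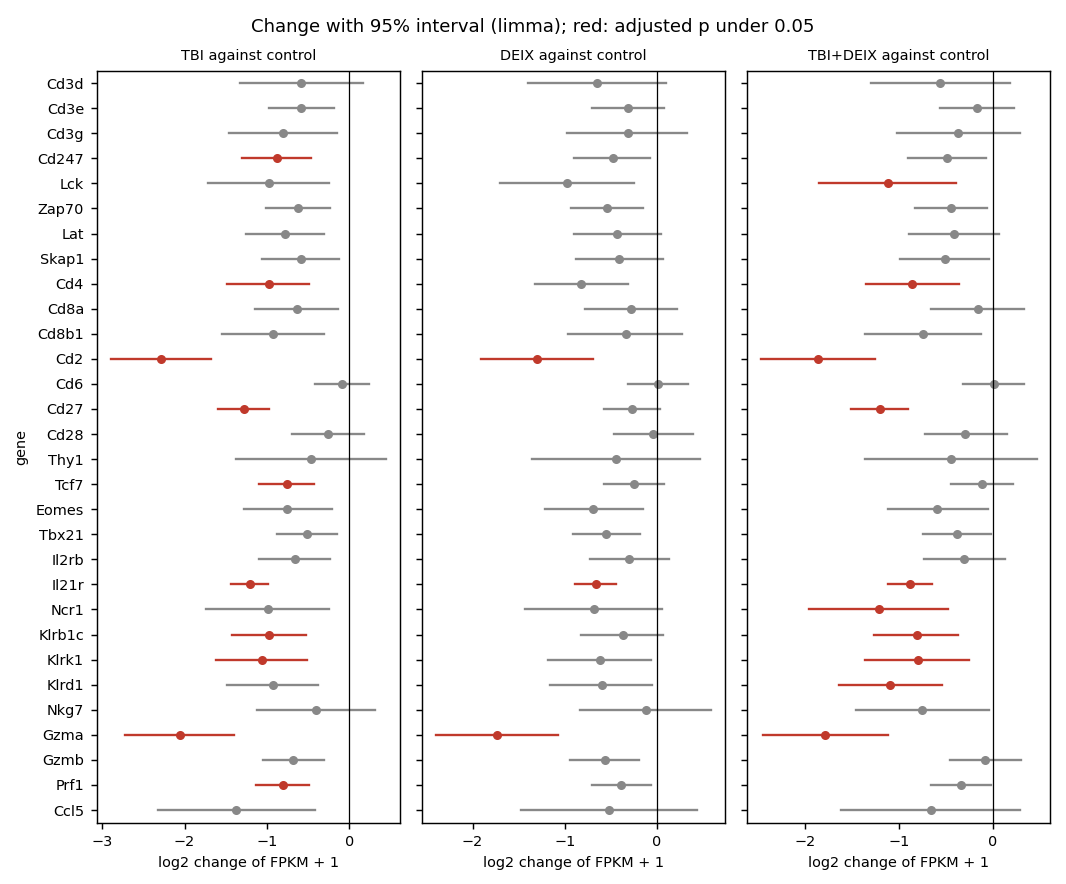
Points give the log2 change of FPKM + 1 for the 30 tested genes and lines its 95% interval, for TBI, DEIX and TBI+DEIX each against the same 3 control libraries, with red for a limma adjusted p under 0.05. Each panel has its own horizontal axis. Cd2, Il21r and Gzma are red in all 3 panels, and the 4 NK receptors are all red only in the TBI+DEIX panel.

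DEIX without irradiation was compared with the same control libraries. Of the 30 tested members, 29 had a lower mean and 3 fell, Cd2, Il21r and Gzma, against 2.72% of all tested genes called lower and 7.24% in either direction. The median log2 change was −0.46, against 0.016 over all tested genes. All 3 DEIX libraries lay below all 3 controls for 20 of the 30 and 23 of all 34 members, which held for 17.2% of tested genes. When TBI+DEIX replicate 1 did not enter the shared spread, 15 of the 30 were called lower, against 8.48% of all tested genes called lower.

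Cd2 was 5.44, 5.19 and 5.42 FPKM in the DEIX libraries, 36.6% of the control mean and close together (log2 change −1.30, SE 0.28, limma adjusted p = 0.0228). Leaving out any control library, DEIX replicate 1 or DEIX replicate 3 ended this call. The B lineage sum in these libraries was 71.5 to 112 FPKM. Of its 12 markers 3 were called lower, against 2.72% of all tested genes. Without TBI+DEIX replicate 1 all 12 were, against 8.48%. The part of these markers in the Cd2 result was not tested. Gzma was 2.59, 6.73 and 5.25 FPKM, 27.2% of control (log2 change −1.73, SE 0.30, limma adjusted p = 0.00967), a call lost without control replicate 2. Il21r was 3.84, 3.46 and 3.81 FPKM, 57.2% of control (log2 change −0.66, SE 0.10, limma adjusted p = 0.00719), and all 20 alternatives kept it.

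Cd27, at 3.67, 4.42 and 4.15 FPKM, kept 79.9% of the control mean under DEIX alone, with a change of −0.27 (SE 0.14, limma adjusted p = 0.261). The receptor chains and Lck, at 3.11, 5.23 and 3.87 FPKM, were wholly below control in DEIX marrow but not called. Lck was at 46.1% of control, close to its 46.3% in TBI marrow, with a limma adjusted p of 0.0969. No NK receptor was called, and DEIX replicate 2 reached control values for Klrb1c (5.79 FPKM) and Klrd1 (9.72 FPKM). These comparisons share the control libraries, so the values of the TBI and DEIX groups stand side by side and are not independent.

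**Figure D3:**
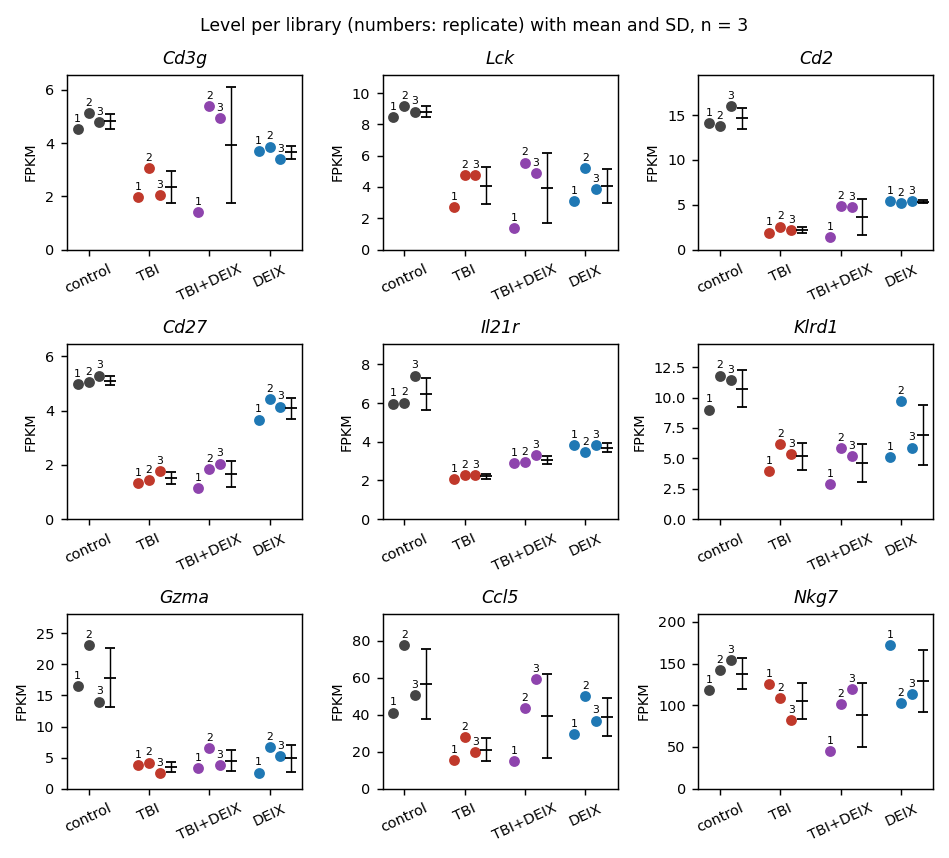
FPKM of 9 members in each library (points, numbered by replicate), with the group mean and SD (n = 3) to the right of the points, each panel on its own axis from 0. Il21r separates all 4 groups, Cd2 and Gzma are under control in all 3 treated groups, and TBI+DEIX replicate 1 lies far under replicates 2 and 3 for Cd3g, Lck and Ccl5.

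The third question was whether DEIX after irradiation changed the T and NK genes relative to irradiation with vehicle. With all libraries, Tcf7 alone rose, 1 of the 30 members, against 4.69% of all tested genes called higher, 3.41% called lower and 8.10% in either direction, so the share of members called was near the background. The median log2 change was 0.18, against 0.0032 over all tested genes, with 25 members positive and 5 negative. Leaving out 1 library moved this median between 0.039, without TBI+DEIX replicate 2 (19 positive, 11 negative), and 0.46, without TBI+DEIX replicate 1 (30 positive); omitting TBI replicate 1, TBI replicate 2 or TBI+DEIX replicate 3 gave 0.11, 0.30 and 0.12. Tcf7, Il21r, Gzmb and Prf1 lay above every TBI library in all 3 TBI+DEIX libraries, 4 of the 30, where 14.5% of tested genes did so.

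Tcf7 was 4.13, 4.10 and 3.86 FPKM in TBI+DEIX libraries, against at most 2.68 FPKM in TBI libraries (log2 change 0.66, SE 0.15, limma adjusted p = 0.0293). The 3 libraries lay close together, replicate 1 included. The call was lost on rescaling to TPM, in a fit of these 2 groups alone and without control replicate 2, TBI replicate 1, TBI replicate 3 or TBI+DEIX replicate 3, with changes between 0.51 and 0.86 over all alternatives. Gzmb was 2.26, 1.79 and 1.45 FPKM in TBI+DEIX and 0.971, 0.997 and 0.622 FPKM in TBI libraries (log2 change 0.60, SE 0.17, limma adjusted p = 0.0551). Prf1 was 1.17, 1.49 and 1.03 FPKM in TBI+DEIX libraries (log2 change 0.47, SE 0.15, limma adjusted p = 0.0682), and Il21r 2.90, 2.95 and 3.29 FPKM (log2 change 0.33, SE 0.10, limma adjusted p = 0.0681). Il21r stayed below every DEIX library and every control library.

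Several other members differed between TBI+DEIX replicate 1 and the other two TBI+DEIX libraries. Cd3d was 1.10, 5.26 and 5.38 FPKM in replicates 1 to 3, Cd3e 1.40, 2.80 and 3.16 FPKM, and Cd3g 1.41, 5.39 and 4.95 FPKM. Replicates 2 and 3 thus lay within or above the control range for these 3 chains, and replicate 1 below the lowest control by more than 1 FPKM. Thy1 ran the same way, at 2.18, 10.9 and 10.2 FPKM, and Ccl5 at 14.9, 43.5 and 59.4 FPKM. Of all 34 members, 33 lay below every control library in replicate 1 and 22 did so in each of replicates 2 and 3. The depth and marker sums of replicate 1 are given above, and their part in its low values was not tested.

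Without TBI+DEIX replicate 1, 17 of the 30 members were called higher than in TBI libraries, against 16.2% of all tested genes, and none lower, against 9.59%. The median log2 change was 0.46. Both remaining libraries lay above every TBI library for 24 of the 30, and for 31.8% of tested genes. The 17 were all 4 receptor chains, Zap70, Skap1, Cd4, Cd8a, Cd2, Thy1, Tcf7, Eomes, Tbx21, Il2rb, Il21r, Prf1 and Ccl5; Cd3g rose by 0.89 (SE 0.13, limma adjusted p = 0.00397). None of the 4 NK receptors was among them, but 7 of 17 further NK and cytotoxic genes were called higher in this fit (median 0.55). In this fit, 2 libraries are compared with 3. It also called 8 of 12 interferon response genes (median 0.98) and 5 of 9 neutrophil markers (median 0.7) higher. Called lower were 4 of 9 plasmacytoid dendritic, 3 of 9 progenitor, 1 of 7 monocyte and 4 of 9 erythroid markers, and 0 of 12 B lineage markers. The part of these cells and genes in the members' values was not tested.

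**Figure D4:**
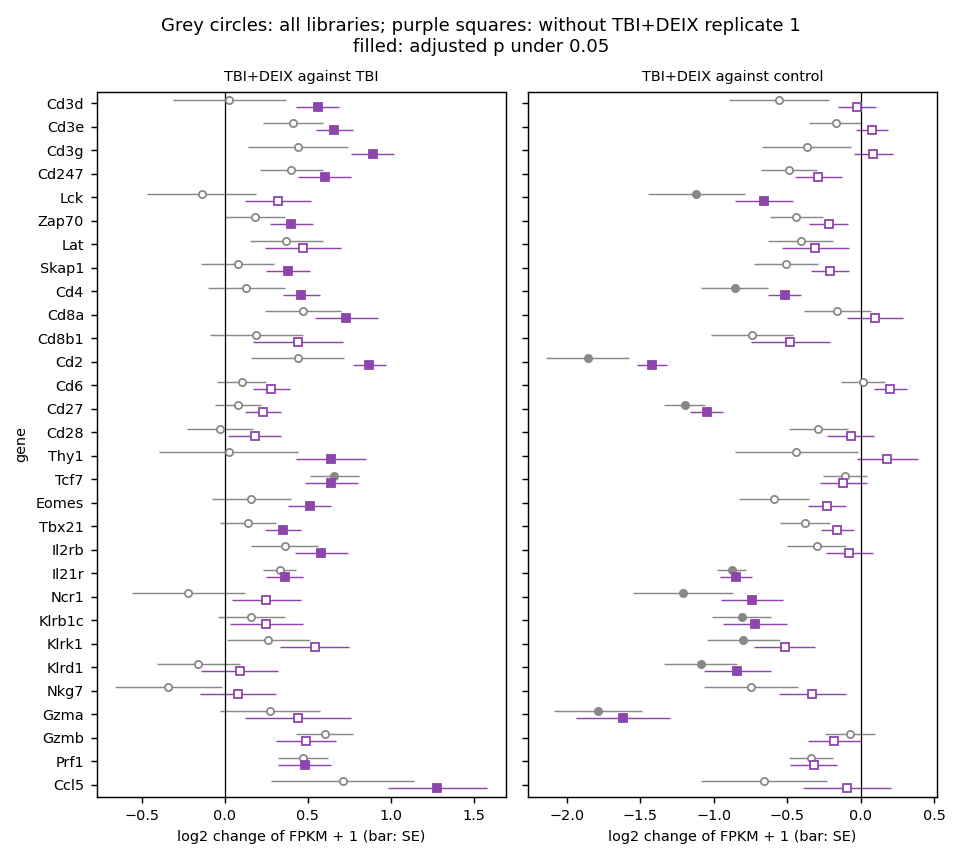
Log2 change of FPKM + 1 with its SE (bars) for the 30 tested genes in TBI+DEIX libraries against TBI and against control, with all libraries (grey circles) and without TBI+DEIX replicate 1 (purple squares); filled symbols have a limma adjusted p under 0.05. Against TBI, 1 symbol is filled with all libraries and 17 without that replicate; against control, the numbers are 10 and 9.

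Against the untreated controls, 10 of the 30 members were lower in TBI+DEIX marrow, against 13.1% of all tested genes called lower and 30.0% in either direction. They were Lck, Cd4, Cd2, Cd27, Il21r, Gzma and all 4 NK receptors, while none of the 4 receptor chains was called. The median log2 change was −0.53, against 0.020 over all tested genes. Every TBI+DEIX library lay below every control for 19 of the 30 and 20 of all 34 members, which held for 21.1% of tested genes. Without replicate 1, 9 were called lower, against 15.3% of all tested genes, with a median of −0.26. Of the 10, Klrk1 alone was no longer called.

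Gzma stayed low in each TBI+DEIX library, at 3.26, 6.51 and 3.81 FPKM (log2 change against control −1.79, SE 0.30, limma adjusted p = 0.0018). Cd27 was 1.13, 1.85 and 2.05 FPKM (log2 change −1.20, SE 0.14, limma adjusted p = 0.000306) and Cd2 1.37, 4.85 and 4.77 FPKM (log2 change −1.86, SE 0.28, limma adjusted p = 0.000939). All libraries of the 3 genes were below control. The calls of Cd2, Cd27, Il21r, Klrd1 and Gzma held in every alternative. Those of Lck, Cd4, Ncr1, Klrb1c and Klrk1 were each lost in at least 1 of those that left out a control library.

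Klrd1 was 9.00, 11.8 and 11.4 FPKM in control and 2.89, 5.81 and 5.19 FPKM in TBI+DEIX libraries (log2 change −1.09, SE 0.25, limma adjusted p = 0.00854). Ncr1 was 4.82, 4.83 and 3.50 FPKM in control and 0.199, 2.58 and 1.85 FPKM in TBI+DEIX libraries (log2 change −1.21, SE 0.34, limma adjusted p = 0.02). Klrb1c, at 2.56, 3.69 and 3.02 FPKM, and Klrk1, at 2.78, 5.31 and 6.43 FPKM, were also wholly below control. Without replicate 1, the log2 changes against control were −0.74 for Ncr1, −0.72 for Klrb1c, −0.84 for Klrd1 and −0.52 for Klrk1, and −0.025, 0.074, 0.085 and −0.29 for Cd3d, Cd3e, Cd3g and Cd247.

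The sums of the 2 groups of genes, a comparison chosen after the values were seen and given with no test, show this by library. The 4 receptor chains summed to 14.2, 16.0 and 16.0 FPKM in control, 6.71, 9.69 and 7.63 FPKM in TBI, 4.70, 15.0 and 15.3 FPKM in TBI+DEIX and 9.54, 11.3 and 9.72 FPKM in DEIX libraries. The 4 NK receptors summed to 28.7, 33.5 and 28.1 FPKM in control, 10.7, 17.8 and 11.8 FPKM in TBI, 8.43, 17.4 and 16.5 FPKM in TBI+DEIX and 14.9, 24.8 and 18.1 FPKM in DEIX libraries. The ratio of NK receptors to receptor chains was 1.76 to 2.10 in control, 1.55 to 1.83 in TBI and 1.56 to 2.19 in DEIX libraries. In TBI+DEIX libraries it was 1.79 in replicate 1 and 1.16 and 1.07 in replicates 2 and 3, the lowest values of the 12. The ratio of Cd4 to Cd8a ran from 1.88 to 2.44 in control, 1.60 to 2.13 in TBI, 0.880 to 1.29 in TBI+DEIX and 0.926 to 2.08 in DEIX libraries. T cells with NK receptors and NK cells with the zeta chain exist, so neither sum belongs to 1 cell type.

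**Figure D5:**
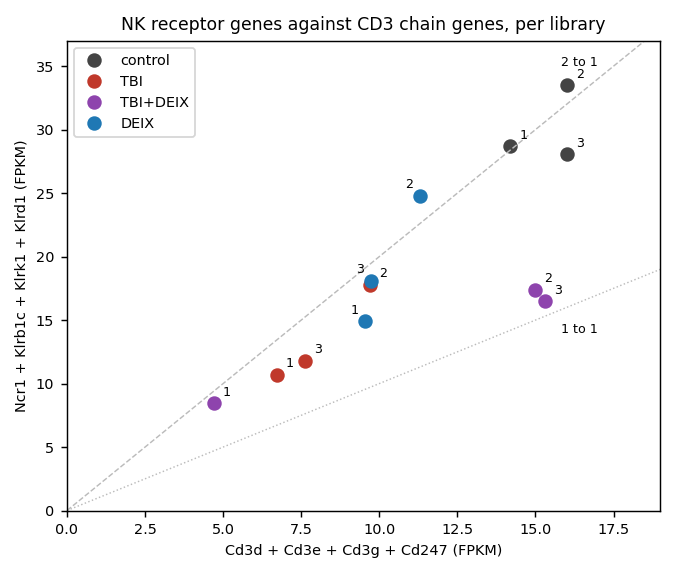
Summed FPKM of 4 NK receptors (vertical) against that of 4 receptor chains (horizontal), 1 point per library, numbered by replicate, with lines at ratios of 1 to 1 and 2 to 1. TBI+DEIX replicates 2 and 3 have control-like sums of receptor chains (15.0 and 15.3 FPKM) and NK receptor sums of 17.4 and 16.5 FPKM, and lie nearest the 1 to 1 line.

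The interaction asked whether the DEIX effect differed between irradiated and unirradiated mice. The labels give vehicle for the TBI group only, so a vehicle effect cannot be told apart from this interaction. The interaction was positive for 29 of the 30 members, with a median of 0.74 on the log2 scale against −0.018 over all tested genes. All 12 B lineage markers and all 12 interferon response genes were also positive, with medians of 1.25 and 1.94 and no call; without TBI+DEIX replicate 1, 1 and 11 of them were called higher, against 2.57% of all tested genes, with medians of 2.12 and 2.93. Their part in the members' values was not tested. Il21r alone was called, as higher, against 0.191% of all tested genes called higher, 0.00910% called lower and 0.200% in either direction. DEIX mice had less Il21r than control mice (3.70 ± 0.213 against 6.47 ± 0.821 FPKM, SD, n = 3 libraries), and TBI+DEIX mice had more than TBI mice (3.05 ± 0.213 against 2.21 ± 0.116 FPKM), the latter difference not past the threshold. The difference of the 2 effects was 1.00 (SE 0.15, 95% interval from 0.68 to 1.32, limma adjusted p = 0.0213); it kept its call in 6 of 19 alternatives and in 1 of the 12 that left out a library. Gzma, at 2.00 (SE 0.43, limma adjusted p = 0.116), and Cd2, at 1.74 (SE 0.39, limma adjusted p = 0.139), had larger estimates with no call. Without TBI+DEIX replicate 1, 15 members were called higher, against 2.57% of all tested genes, and none lower, against 0.446%.

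The 4 members below the filter were fitted with no filter on low values. Cd96, a receptor of T and NK cells, was 1.20, 1.06 and 0.891 FPKM in control, 0.359, 0.524 and 0.493 FPKM in TBI and 0.227, 0.461 and 0.494 FPKM in TBI+DEIX libraries. It was lower than control in both groups (log2 change −0.49, limma adjusted p = 0.0141 for TBI, and −0.56, limma adjusted p = 0.00225 for TBI+DEIX), where 3.90% and 21.0% of all genes fitted were called. Both calls held without TBI+DEIX replicate 1 (−0.49, limma adjusted p = 0.00422, and −0.47, limma adjusted p = 0.00306), and Cd96 was then also called lower in DEIX marrow (−0.31, limma adjusted p = 0.0232). Cd5, a T cell scavenger receptor, and Bcl11b and Gata3, T lineage factors, passed no test with all libraries; without that replicate Bcl11b was called lower in TBI than in control marrow (−0.25, limma adjusted p = 0.0251) and higher in TBI+DEIX than in TBI marrow (0.31, limma adjusted p = 0.0189), as was Gata3 (0.43, limma adjusted p = 0.0304), and the interaction of Bcl11b was called (0.47, limma adjusted p = 0.0292). In that fit, 9.39% of all genes were called in TBI against control, 13.1% in TBI+DEIX against TBI, 12.2% in DEIX against control, 26.9% in TBI+DEIX against control and 1.85% in the interaction. Bcl11b was 0.233 ± 0.0808 FPKM in TBI against 0.468 ± 0.0510 FPKM in control libraries (SD, n = 3).

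Other genes of the same pathways came from lists that were likewise chosen with earlier results of these data known; their counts stand beside the 3.10% of all tested genes called lower in TBI against control. Of 16 tested further genes of T cell receptor signalling, none rose in TBI against control and 3 fell, among them Rasgrp1, an activator of Ras (log2 change −1.50, SE 0.22, limma adjusted p = 0.00394), and Prkcq, protein kinase C theta, at −0.64. The list's median was −0.34. Of 17 further NK and cytotoxic genes, 4 fell: Klrc2, Klra1, Klra4 and Klra9, with Klra4 at −1.43 (SE 0.25, limma adjusted p = 0.00921) and a median of −0.82. These receptors lie in families of close copies, so the split of reads among them is uncertain. The 8 Gimap genes, GTPases of lymphocytes, were all negative with a median of −1.03, and Gimap3 and Gimap8 fell.

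Of 11 tested genes of the interleukin-7, interleukin-2 and interleukin-15 pathways, 3 fell and none rose: Il2ra, the interleukin-2 receptor alpha chain (log2 change −1.89, SE 0.17, limma adjusted p = 0.000245), Il7r, the interleukin-7 receptor (−1.55, limma adjusted p = 0.0492), and Socs1, a feedback inhibitor of cytokine signalling (−0.97). Of 13 homing genes, 4 fell: Ccr7, the lymph node homing receptor (log2 change −1.96, SE 0.18, limma adjusted p = 0.000231), S1pr1, the receptor for egress into blood, at −1.34, Cd69, its antagonist at the cell surface, at −0.84, and Klf2, a factor that drives S1pr1, at −0.59. Il7r and Ccr7 are also transcribed outside T cells, Il7r by B cell precursors among them. Of 12 further transcription factors, Ikzf2 and Bach2 fell. The part of the B lineage markers (median −1.94 in TBI against control) in the Il2ra, Il7r and Bach2 results was not tested. Without TBI+DEIX replicate 1 the counts called lower in TBI against control were 6 of 16 signalling, 11 of 17 NK and cytotoxic, 7 of 8 Gimap, 4 of 11 cytokine pathway, 5 of 13 homing and 2 of 12 transcription factor genes, against 7.20% of all tested genes; none was called higher, against 4.96%.

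In TBI+DEIX against TBI marrow, 2 signalling, 0 NK and cytotoxic, 1 Gimap, 2 cytokine pathway, 1 homing and 0 transcription factor genes were called higher, against 4.69% of all tested genes. They included Nfatc1 (0.46), the kinase Jak3 (1.12), Socs1 (0.69), Klf2 (0.96, limma adjusted p = 0.0108) and Gimap3 (0.75). None of the lists had a gene called lower, against 3.41%. Jak3 (42.1 FPKM) and Klf2 (110 FPKM) were highest of all libraries in TBI+DEIX replicate 1, while Nfatc1, Socs1 and Gimap3 were not. That library had the lowest sum of receptor chains (4.70 FPKM). The part of other marrow cells in these changes was not tested. In DEIX against control marrow, the 6 lists in that order had 2, 0, 0, 3, 3 and 2 genes called lower, against 2.72% of all tested genes, and 0, 1, 0, 2, 0 and 1 called higher, against 4.52%. Those called lower included Il2ra (−1.82), Il7r (−1.43), Socs1 (−0.83), Ccr7 (−1.47), Cd69 (−0.42), the chemokine Cxcl12 (−1.51), Rasgrp1 (−1.02), Ikzf2 (−0.43) and Bach2 (−2.30). Called higher were Jak1 (0.37), Jak3 (1.03), the NK receptor Cd244a (1.20) and Nfil3 (0.83), a factor that NK cells need to develop. In the same comparison the NK receptors among the members had a median of −0.61 and the monocyte markers one of 0.89. The part of other marrow cells in the Cd244a and Nfil3 results was not tested. Without TBI+DEIX replicate 1, the 6 lists in the same order had 5, 7, 4, 6, 5 and 2 genes called higher in TBI+DEIX against TBI, against 16.2% of all tested genes, and none lower. In DEIX against control they had 5, 7, 5, 3, 5 and 3 called lower and 2, 1, 0, 2, 1 and 2 called higher, where 8.48% of all tested genes were called lower and 13.3% higher. The interaction was called for Il2ra (2.07, SE 0.25, limma adjusted p = 0.0142) and Socs1 (1.52, SE 0.20, limma adjusted p = 0.0142) and no other gene of the 6 lists, where 0.200% of all tested genes were called. Without that replicate 2, 6, 3, 3, 5 and 0 genes of the lists had an interaction called higher and none lower, against 2.57% of all tested genes called higher.

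Markers of other marrow cells moved with the groups, and their part in the results was not tested. None of the 12 B lineage and 9 plasmacytoid dendritic markers was at 0 throughout, and both sums were below every control in each treated library: 8.03 to 229 FPKM and 37.7 to 115 FPKM in TBI+DEIX, against 537 to 660 FPKM and 381 to 447 FPKM in control. The median log2 change of 12 interferon response genes was −1.83 in TBI, −1.64 in DEIX and −1.79 in TBI+DEIX marrow against control, with 1, 3 and 6 called lower, where 3.10%, 2.72% and 13.1% of all tested genes were. Without TBI+DEIX replicate 1 these counts were 12, 12 and 6, where 7.20%, 8.48% and 15.3% of all tested genes were called lower, and the TBI+DEIX median was −0.97. Summed neutrophil markers overlapped control in TBI (19600 to 25000 FPKM) and DEIX marrow (21400 to 27500 FPKM), against 18600 to 26500 FPKM in control. In TBI+DEIX marrow the sum was 14100 FPKM in replicate 1. Replicates 2 and 3, at 39900 and 36400 FPKM, lay above every control and TBI library. Against control, 3 of these 9 markers were called higher and 1 lower (16.9% and 13.1% of all tested genes). Without replicate 1, 6 were called higher and 2 lower (23.2% and 15.3%). Erythroid markers summed to 230 to 1820 FPKM in TBI+DEIX libraries, below every TBI (2020 to 9220 FPKM) and control library (3700 to 5830 FPKM). These 9 genes had a median log2 change of −2.64 against TBI, with 3 called lower, and 7 were called lower against control, where 3.41% and 13.1% of all tested genes were. Without replicate 1 these counts were 4 and 2, where 9.59% and 15.3% of all tested genes were called lower. Of 7 monocyte markers, 3 were called higher in DEIX against control marrow, with a median of 0.89, against 4.52% of all tested genes; without TBI+DEIX replicate 1 the count was 5, against 13.3%.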

How the data were processed

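RNA of whole marrow cells was sequenced in 12 libraries after a directional MGI kit on total RNA, per the labels' protocols. The authors deposited FPKM per gene. The submitters' processing notes name STAR 2.6, Cufflinks 2.2.1 and mm10, without their roles. All 21853 identifiers matched GENCODE vM21 symbols. Tests ran on the log2 of the deposited FPKM plus a pseudocount of 1, which makes changes of low genes look smaller, with limma 3.58.1 in R 4.3.3 (lmFit, eBayes with trend) in 1 model of 4 group means with 8 residual degrees of freedom; the filter is given in the results. P-values were adjusted by Benjamini-Hochberg over 10994 genes for each of 5 contrasts, with a threshold of 0.05. The script was tested on simulated data. The members and lists were chosen with earlier results of these data known. All 34 members could be named; from other lists, genes called in the contrast and the 3 of highest mean FPKM. A few results on those lists are not reported here. Depth was estimated from steps in low values of genes with 1 transcript. S100a8, S100a9 and Ngp were listed at 0 in 2, 4 and 5 libraries, read as failed estimates. Alternatives were other pseudocounts, filters, scalings, weights and fits, a replicate block and each library left out.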

Additional observations from a re-analysis of the deposited data

Results flagged for a closer look

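The DEIX effect on Il21r differed between irradiated and unirradiated mice by an interaction term of 1.00 on the log2(FPKM + 1) scale (SE 0.15, limma adjusted p = 0.0213). The labels give vehicle for the TBI group only, so a vehicle effect cannot be told apart from this term. The adjusted p ran from 0.00106 to 0.186 and the estimate from 0.90 to 1.23 over 19 alternatives, of which 6 kept the call. All 3 DEIX libraries lay below all 3 control libraries, and all 3 TBI+DEIX libraries above all 3 TBI libraries.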

How the results depend on the processing

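The number of members called depended on the fit more than their direction did. With a mean of at least 5 FPKM required, 9 members were tested and the counts were 2 for TBI against control, 0 for TBI+DEIX against TBI, 5 for TBI+DEIX against control, 0 for the interaction and 2 for DEIX against control (of all genes then tested 1.61%, 9.33%, 30.2%, 0.0839% and 6.91%). Array weights, estimated gene by gene because the REML estimate did not converge, gave 27, 16, 18 and 21, and 27 for DEIX against control; of all tested genes they called 38.4%, 40.8%, 56.3%, 4.84% and 41.0%. Fits of 2 groups alone gave 25, 0, 6 and, for DEIX against control, 16; these fits called 12.9%, 0.00%, 19.8% and 18.7% of all tested genes, and none could be made for the interaction. Rescaling to TPM, with or without S100a8, S100a9 and Ngp (the latter chosen after seeing the data), gave 0 for TBI+DEIX against TBI (1.43% and 4.44% of all tested genes), 0 for the interaction (0.255%), 9 for TBI against control (2.30% and 2.65%), 4 for DEIX against control (2.57% and 3.71%), and 11 and 15 for TBI+DEIX against control (16.2% and 23.2%). Leaving out 1 library gave 4 to 26 for TBI against control, 0 to 17 for TBI+DEIX against TBI, 1 to 15 for DEIX against control, 5 to 14 for TBI+DEIX against control and 0 to 15 for the interaction, while 1.39% to 12.2%, 0.0455% to 25.8%, 1.33% to 21.8%, 18.2% to 38.5% and 0.0364% to 3.01% of all tested genes were called; the highest member counts, except in TBI+DEIX against control, came without TBI+DEIX replicate 1. A pseudocount of 0.1 moved the TBI median to −1.09.

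Some uncalled changes of TBI+DEIX against TBI turned negative: Cd3d (−0.051) and Thy1 (−0.02) with a pseudocount of 0.1; Cd3d (−0.13), Skap1 (−0.038), Cd27 (−0.014) and Thy1 (−0.13) under TPM; and Cd3d (−0.12), Skap1 (−0.025) and Thy1 (−0.11) under TPM without those 3 genes. With 1 library left out, Cd3d ran from −0.25 to 0.56, Skap1 from −0.084 to 0.38, Cd4 from −0.12 to 0.46, Thy1 from −0.31 to 0.64, Eomes from −0.04 to 0.51 and Cd27 from −0.024 to 0.23. Without TBI+DEIX replicate 1 the 5 negative changes turned positive: Lck (0.32), Cd28 (0.18), Ncr1 (0.25), Klrd1 (0.089) and Nkg7 (0.078), none called. The causes were not tested, beyond fewer genes or samples where those were removed. TPM shifted the median of all tested genes to −0.12 in TBI+DEIX against TBI and in DEIX against control.

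Same-numbered libraries were not more alike than others. Their deviations from the group means correlated at a median of −0.066 (18 pairs, 3 over 0.1), and those of other pairs at 0.06 (36 pairs). This does not settle whether libraries of 1 number were handled together. The replicate block gave 14 members for TBI against control, 2 for TBI+DEIX against TBI, 5 for DEIX against control, 12 for TBI+DEIX against control and 2 for the interaction (3.44%, 4.31%, 5.82%, 27.3% and 0.182% of all tested genes). Fewer fragments stand behind a given FPKM in TBI+DEIX replicate 1 than in the others by the depth estimate, whose steps were least clear in that library (coherence 0.18, against 0.26 to 0.34, on a scale where 1 is perfect).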
